A study of Rattus norvegicus with 21 samples.

Results

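The genes described here are 8 members of the circadian clock, Per1, Per2, Per3, Dbp, Nr1d1, Arntl, Clock and Cry1, out of 26404 genes counted in rat renal cortex. They were chosen by Ensembl identifier and chromosome, and all 8 were found on the chromosome named for them. The study asked how the diabetic kidney responds to weight loss with combined drug treatment, in male rats killed at 37 weeks of age. Sprague Dawley rats (SD, n=6) were the healthy controls. Zucker Diabetic Sprague Dawley (ZDSD) rats, which develop diabetes with intact leptin signalling, had a sham laparotomy and no further treatment (SHAM, 9 rats deposited and 7 used). The other ZDSD rats had the same sham laparotomy, dietary restriction and metformin, fenofibrate, ramipril, liraglutide and rosuvastatin together (DMT, n=6, named medical bypass in the labels). All rats ate the same chow, and insulin degludec was given before surgery. SHAM vs SD therefore differs at once in strain, diabetes, surgery and the insulin, antibiotic and analgesic given around surgery. DMT vs SHAM differs at once in diet, with its daily ration at a set hour, and 5 drugs.

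The circadian clock is a transcriptional feedback loop that runs in nearly every cell, with a period of about a day. Its activators CLOCK and BMAL1, the product of Arntl, bind E-box sequences and switch on the Per and Cry genes, whose products return to the nucleus and inhibit the activators. They also switch on Nr1d1, which encodes the repressor REV-ERBα and holds Arntl down through ROR response elements, and Dbp, whose product binds D-boxes and carries the rhythm to output genes. In peripheral tissues of rodents, Arntl therefore runs roughly opposite in phase to Dbp, Nr1d1 and the Per genes. In the kidney, the clock is known for daily rhythms in sodium handling and filtration. The phase of this rhythm in liver and kidney follows the time of feeding.

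The E-box CACGTG, the RORE core TNGGTCA and the D-box TTANGTAA were searched on both strands of the RefSeq promoter windows of these genes (GRCr8, 250 bases before to 50 after the start). There were 9 windows for 7 members, and no window was used for Cry1. Of all 33469 rat windows, 6.42% held the E-box, 11.1% the RORE core and 2.24% the D-box. A single match, with no overlap between motifs, occurred in 3 of the 9 windows, which are printed here because each lies at a gene that differed in SHAM vs SD. Each motif was found in 1 window, a share to be read against these backgrounds, and the windows of Per1, Per3, Dbp and Clock held none of these letters. The 3 windows are written 5′ to 3′ on the strand of the gene, with the matched letters in capitals. The Per2 window (chr9:99496944-99497243, minus strand) holds a D-box that begins 192 bases before the start, the second Nr1d1 window (chr10:84229405-84229704, minus strand) an E-box 191 bases before, and the Arntl window (chr1:176766078-176766377, plus strand, Bmal1 in RefSeq) a RORE core 16 bases before. A match is a description of the letters and not a bound site.
Per2: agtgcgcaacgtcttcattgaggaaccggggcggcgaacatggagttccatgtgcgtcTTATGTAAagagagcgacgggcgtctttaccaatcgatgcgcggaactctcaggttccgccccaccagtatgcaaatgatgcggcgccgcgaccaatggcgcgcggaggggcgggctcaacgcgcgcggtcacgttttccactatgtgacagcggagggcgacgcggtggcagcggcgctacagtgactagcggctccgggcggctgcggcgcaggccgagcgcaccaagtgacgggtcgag
Nr1d1: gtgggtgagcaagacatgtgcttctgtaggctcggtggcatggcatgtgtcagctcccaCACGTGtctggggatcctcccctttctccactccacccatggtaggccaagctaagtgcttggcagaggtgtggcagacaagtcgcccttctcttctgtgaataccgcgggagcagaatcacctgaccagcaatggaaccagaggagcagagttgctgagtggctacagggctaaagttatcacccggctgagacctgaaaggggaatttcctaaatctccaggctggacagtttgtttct
Arntl: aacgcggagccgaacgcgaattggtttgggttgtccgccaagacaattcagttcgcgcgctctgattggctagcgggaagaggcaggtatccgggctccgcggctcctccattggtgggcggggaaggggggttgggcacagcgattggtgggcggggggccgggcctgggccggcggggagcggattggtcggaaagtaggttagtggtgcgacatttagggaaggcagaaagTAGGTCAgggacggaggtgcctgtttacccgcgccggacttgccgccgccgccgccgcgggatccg

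Total counts ranged from 20896370 to 27597901 in SD rats, from 14502127 to 23995113 in SHAM rats and from 22308943 to 26812590 in DMT rats. SHAM rats 343 and 348 held 121511 and 101534 counts and were left out. By the labels, SD and SHAM rats had been deposited before and were analysed again, DMT rats carry no such remark, and no batch is named. The labels and methods do not give the hour at which rats were killed. DMT rations were given once a day in mid-afternoon, right after liraglutide. The hour of sampling, the hour of the last meal and the group cannot be told apart in any comparison below. In whole cortex, fewer cells of a type and less RNA per cell cannot be told apart either. The files do not pair identifiers with symbols, and 0 identifiers matched the reference gene table. Markers of renal cell types and other clock genes (Cry2, Nr1d2, Npas2, Rora, Tef and others) were therefore not analysed here. Levels are CPM, counts per 1000000 after TMM scaling between libraries, and the lowest, median and highest rat of each group are given.

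Of the activators, Arntl (ENSRNOG00000014448, rn5 chr1:185007568-185105409, plus strand) was the member with the largest difference between SD and ZDSD rats. It lay at 42.9, 67.6 and 79.0 CPM in SD rats, at 4.89, 8.21 and 19.7 CPM in SHAM rats and at 3.46, 8.34 and 18.3 CPM in DMT rats. Every SD rat was above every ZDSD rat. SHAM rat 311 and DMT rat 341 held the highest values in their groups, each above all other rats of both ZDSD groups. Arntl was 6.90-fold lower in SHAM vs SD (log2 fold-change -2.79, SE 0.30, edgeR quasi-likelihood adjusted p=2.7e-06), the 41st lowest log2 fold-change of the 14664 genes tested. It was 7.22-fold lower in DMT vs SD (log2 fold-change -2.85, SE 0.32, adjusted p=1.95e-06). DMT vs SHAM gave a log2 fold-change of -0.06 (95% confidence interval -0.71 to 0.59, adjusted p=0.914).

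Clock (ENSRNOG00000002175, rn5 chr14:34242961-34282766, plus strand), the partner of BMAL1, was lower by far less. It lay at 46.0, 52.7 and 55.7 CPM in SD rats, at 34.5, 38.0 and 41.2 CPM in SHAM rats and at 36.8, 40.1 and 44.8 CPM in DMT rats. All SD rats were above all ZDSD rats. Scaled to library totals alone, DMT rat 341 (44.7 CPM) was above SD rat 352 (44.4 CPM). The log2 fold-change was -0.43 (SE 0.06, adjusted p=2.78e-05) in SHAM vs SD, which is 1.35-fold lower. In DMT vs SD it was -0.34 (SE 0.06, adjusted p=0.000261), which is 1.27-fold and falls short of the 1.3-fold threshold used for calling a gene.

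**Figure D1:**
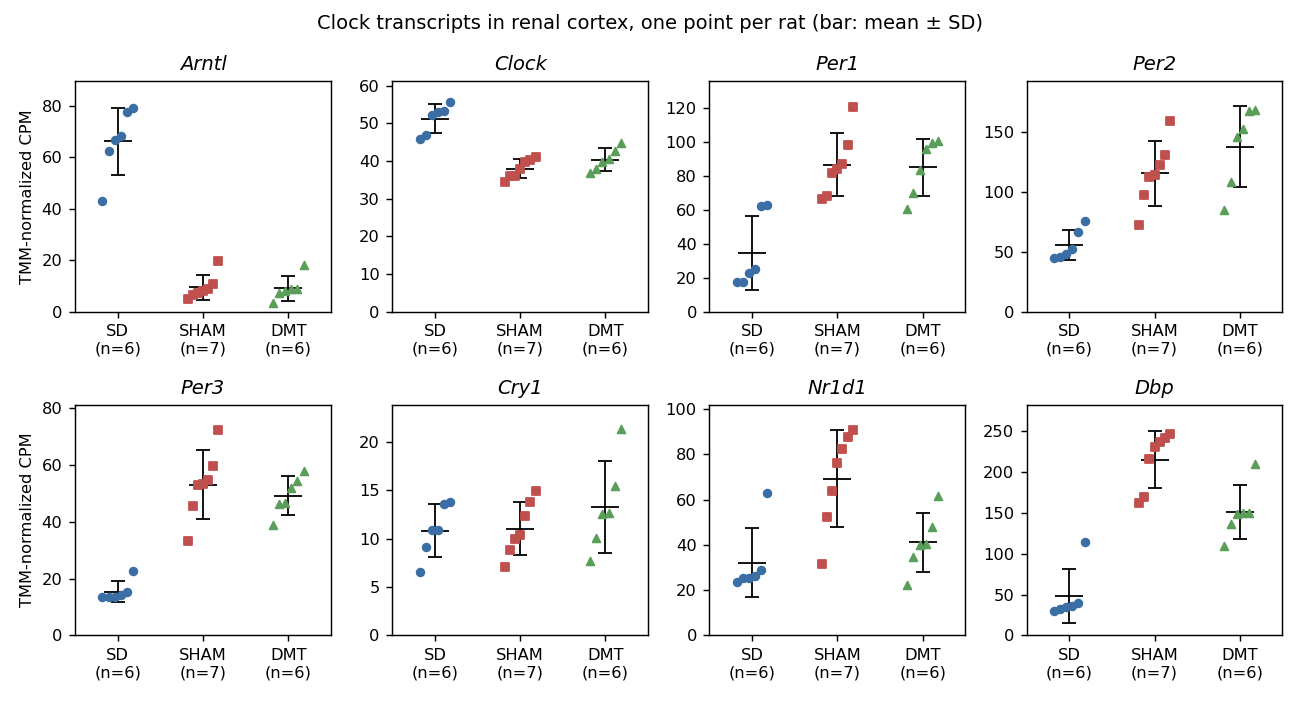
CPM of the 8 clock genes in each rat (points) with the mean and SD of each group (bars), for SD (n=6), SHAM (n=7) and DMT (n=6) rats. The vertical axes start at 0 and differ between genes. Arntl is high in SD rats alone, Per3 and Dbp are high in both ZDSD groups, and SD rat 357 is the SD point closest to the ZDSD groups for Dbp, Per3 and Arntl.

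The 3 Per genes, which encode the period repressors of CLOCK and BMAL1, were higher in both ZDSD groups. Per3 (ENSRNOG00000018413, rn5 chr5:171665221-171700125, minus strand) lay at 13.5, 13.8 and 22.6 CPM in SD rats, at 33.0, 53.3 and 72.1 CPM in SHAM rats and at 38.7, 49.1 and 57.7 CPM in DMT rats. No SD rat reached the ZDSD range, and SD rat 357 was the highest of the SD rats. The log2 fold-change was 1.78 (SE 0.16, adjusted p=2.03e-07) in SHAM vs SD, the 37th smallest p-value of all genes tested, and 1.67 (SE 0.16, adjusted p=2.81e-07) in DMT vs SD.

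Per2 (ENSRNOG00000020254, rn5 chr9:98231204-98273371, minus strand) lay at 45.2, 50.01 and 75.7 CPM in SD rats, at 72.8, 114 and 159 CPM in SHAM rats and at 84.9, 149 and 168 CPM in DMT rats. The lowest SHAM rat, 311, was below SD rat 357, and the DMT and SD ranges were apart. Scaled to library totals alone, SHAM rat 311 (76.6 CPM) was above SD rat 357 (70.6 CPM). The log2 fold-change was 1.06 (SE 0.18, adjusted p=0.000301) in SHAM vs SD and 1.31 (SE 0.19, adjusted p=3.78e-05) in DMT vs SD.

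Per1 (ENSRNOG00000007387, rn5 chr10:55430184-55439080, plus strand), which also responds quickly to glucocorticoids and other signals, was spread widely within the SD rats. It lay at 17.7, 23.8 and 62.6 CPM in SD rats, at 66.6, 84.0 and 120.4 CPM in SHAM rats and at 60.3, 89.6 and 101 CPM in DMT rats. SD rats 355 and 356 were at 62.6 and 62.2 CPM and the other 4 SD rats between 17.7 and 25.1 CPM. SD rat 357, which stood apart for Per3 and Dbp, was at 22.5 CPM for Per1. The log2 fold-change was 1.32 (SE 0.28, adjusted p=0.00164) in SHAM vs SD and 1.29 (SE 0.29, adjusted p=0.00216) in DMT vs SD.

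Cry1 (ENSRNOG00000006622, rn5 chr7:24683890-24784328, plus strand), the cryptochrome that represses CLOCK and BMAL1 together with the PER proteins, was the member that passed no comparison. It lay at 6.57, 10.9 and 13.8 CPM in SD rats, at 7.09, 10.4 and 14.9 CPM in SHAM rats and at 7.70, 12.6 and 21.4 CPM in DMT rats, so all 3 ranges overlapped. The log2 fold-change was 0.02 (95% confidence interval -0.43 to 0.48, adjusted p=0.942) in SHAM vs SD and 0.29 (-0.18 to 0.76, adjusted p=0.333) in DMT vs SD. Another gene lies over part of its span on the same strand and shares no exon with it.

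Dbp (ENSRNOG00000021027, rn5 chr1:102766762-102771674, plus strand), the output factor of the loop, had the largest increase of the members in SHAM vs SD. It lay at 29.7, 35.4 and 115 CPM in SD rats, at 163, 230.4 and 247 CPM in SHAM rats and at 109, 149 and 209.7 CPM in DMT rats. SD rat 357 held 115 CPM and the other 5 SD rats 29.7 to 39.7 CPM, so this rat alone reached the DMT range, whose lowest value was 109 CPM. Scaled to library totals alone, SD rat 357 was at 107.05 CPM, below the lowest DMT rat, 347, at 108.6 CPM. Dbp was 4.49-fold higher in SHAM vs SD (log2 fold-change 2.17, SE 0.27, adjusted p=1.25e-05), the 77th highest log2 fold-change of all genes tested, and 3.15-fold higher in DMT vs SD (log2 fold-change 1.65, SE 0.27, adjusted p=0.00014).

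Nr1d1 (ENSRNOG00000009329, rn5 chr10:86479868-86486598, minus strand), the repressor of Arntl, was higher in SHAM vs SD and lay between them in DMT rats. It lay at 23.8, 25.9 and 63.1 CPM in SD rats, at 31.4, 76.2 and 90.7 CPM in SHAM rats and at 22.5, 40.2 and 61.4 CPM in DMT rats. The highest SD value was again that of rat 357, the other 5 SD rats being at 23.8 to 29.1 CPM. The log2 fold-change was 1.11 (SE 0.27, adjusted p=0.00411) in SHAM vs SD and 0.36 (95% confidence interval -0.22 to 0.93, adjusted p=0.335) in DMT vs SD. Without SD rat 357, the latter was called (log2 fold-change 0.66, adjusted p=0.0432).

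A gene was called at an adjusted p-value under 0.05 and a fold-change of at least 1.3. In SHAM vs SD, 7 of the 8 members were called, 5 higher (Per1, Per2, Per3, Dbp, Nr1d1) and 2 lower (Arntl, Clock), where 18.3% of the 14664 genes tested were called, 10.3% higher and 7.95% lower. In 5 of the 8 (Per1, Per3, Dbp, Arntl, Clock) the values of the SHAM and SD rats did not overlap, which held for 8.61% of all genes. In DMT vs SD, 5 members were called, 4 higher (Per1, Per2, Per3, Dbp) and 1 lower (Arntl), where 18.2% of all genes were called, 8.01% higher and 10.2% lower. The groups did not overlap for 4 of the 8 (Per2, Per3, Arntl, Clock), where the background was 16.9%. Both counts of members without overlap are after TMM scaling. With library totals alone, the overlap turned for Per2 in SHAM vs SD and for Clock and Dbp in DMT vs SD. Irrespective of sign, the members had a median log2 fold-change of 1.21 in SHAM vs SD and 1.303 in DMT vs SD, and all genes one of 0.18 in each. The comparisons share the SD rats, so they are not separate evidence of the same differences.

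**Figure D2:**
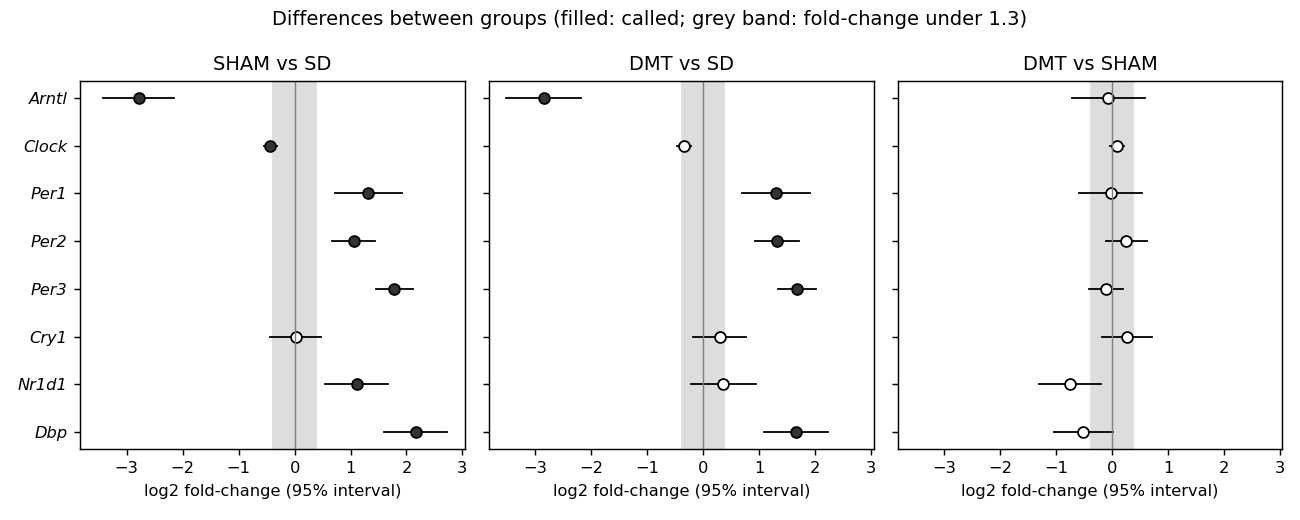
Log2 fold-change with its 95% confidence interval for each clock gene in SHAM vs SD, DMT vs SD and DMT vs SHAM. Filled points were called and the grey band marks fold-changes under 1.3. Per1, Per2, Per3 and Dbp are filled to the right of the band and Arntl far to the left against SD, while every interval but that of Nr1d1 crosses 0 in DMT vs SHAM.

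In DMT vs SHAM, which asks whether diet and drugs changed these genes in diabetic rats, 0 of the 8 members were called with edgeR, where 11.5% of all genes were called, 4.12% higher and 7.36% lower. DESeq2 called 1 member, Nr1d1, and limma-voom none. The groups overlapped for all 8 members, against a background of 7.72% of genes that did not overlap. One member had an unadjusted p-value under 0.05. This was Nr1d1, lower in DMT rats by a log2 fold-change of -0.75 (95% confidence interval -1.304 to -0.19, unadjusted p=0.0107, adjusted p=0.0519), with means of 41.2 ± 13.0 CPM (SD, n=6) in DMT and 69.2 ± 21.5 CPM (SD, n=7) in SHAM rats. SHAM rat 334 was at 31.4 CPM and SHAM rat 340 at 52.4 CPM, within the DMT range, and the other 5 SHAM rats were at 64.0 to 90.7 CPM. The call depended on the fit and was made in 11 of 32 alternatives, in which the adjusted p ranged from 0.0164 to 0.414 and the log2 fold-change from -0.89 to -0.62. It was made without SD rat 357 (adjusted p=0.0211), which belongs to neither group but enters the shared estimate of spread.

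Dbp was the next, with means of 151 ± 33.0 CPM (SD, n=6) in DMT and 215 ± 34.8 CPM (SD, n=7) in SHAM rats. Its log2 fold-change was -0.51 (95% confidence interval -1.05 to 0.02, adjusted p=0.164). DMT rat 329, at 209.7 CPM, lay among the SHAM rats and the other 5 DMT rats, at 109 to 150.5 CPM, lay below all SHAM rats. Dbp was called in 3 of 32 alternatives, among them the fit without SD rat 357 (adjusted p=0.00893). The confidence intervals of the other 6 members in DMT vs SHAM ended at a log2 fold-change of -0.60 and 0.54 for Per1, -0.12 and 0.63 for Per2, -0.41 and 0.20 for Per3, -0.03 and 0.21 for Clock, and -0.18 and 0.72 for Cry1, beside those of Arntl given above. Differences of the size seen against SD in Arntl, Clock, Per1, Per2 and Per3 are outside these intervals. The same holds for Dbp (log2 fold-change 2.17 in SHAM vs SD). For Nr1d1, a decrease as large as its SHAM vs SD difference (log2 fold-change 1.11) lies inside its interval of -1.304 to -0.19.

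Between genes, levels were compared per kb of exon length. Dbp was the highest member in SHAM rats, at 133 ± 21.4 CPM per kb (SD), and in DMT rats, at 92.8 ± 20.3. In SD rats its mean was also the highest, at 29.6 ± 20.3, but this rested on rat 357, at 70.7. Without that rat Dbp was at 21.3 ± 2.33 and Arntl at 23.1 ± 2.33 CPM per kb (SD, n=5), and the medians of all 6 SD rats were 21.8 for Dbp and 22.02 for Arntl. Arntl had a mean of 21.6 ± 4.26 CPM per kb in SD rats and was last in both ZDSD groups, at 3.08 ± 1.59 in SHAM and 2.98 ± 1.6045 in DMT rats. In SD rats the ranges of all neighbours in the order of means Dbp, Arntl, Clock, Nr1d1, Per2, Per1, Per3 and Cry1 overlapped. In SHAM rats the order was Dbp, Nr1d1, Per1, Per2, Per3, Clock, Cry1 and Arntl, with a gap between Dbp and Nr1d1 and between Clock and Cry1. In DMT rats it was Dbp, Per2, Per1, Nr1d1, Clock, Per3, Cry1 and Arntl, with a gap between Dbp and Per2 and between Per3 and Cry1.

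The ratio of Dbp to Arntl, taken within each rat, put these differences in 1 number. It lay at 0.376, 0.524 and 2.67 in SD rats, at 8.64, 26.4 and 49.6 in SHAM rats and at 7.44, 16.9 and 60.6 in DMT rats. It joins the members with the largest decrease and the largest increase in SHAM vs SD, so it is a description and no separate evidence. Every ZDSD rat was above every SD rat, and Arntl alone already separated them. The highest SD value, 2.67, was that of rat 357, and the other 5 SD rats were at or below 0.635. The lowest values of the ZDSD groups were those of SHAM rat 311 and DMT rat 341.

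**Figure D3:**
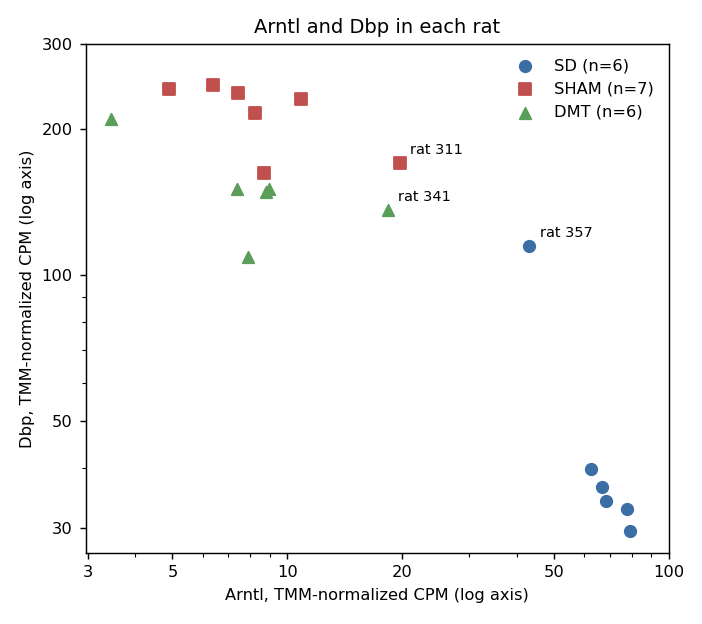
Dbp against Arntl in CPM, both axes on a log scale, with 1 point per rat. The 7 SHAM and 6 DMT rats lie at high Dbp and low Arntl, 5 SD rats at low Dbp and high Arntl, and SD rat 357 between them.

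Within groups, taken over the 3 groups together, the members other than Clock varied more between rats than most genes did. The SD of log2(CPM + 0.5) within groups was 0.57 for Arntl, 0.53 for Per1, 0.52 for Nr1d1, 0.46 for Dbp, 0.41 for Cry1 and 0.35 for Per2, which is at or above the 90th percentile of all genes tested, whose median was 0.17. Per3, at 0.29, lay at the 80.7th percentile. Clock, at 0.10, lay at the 19.98th percentile and was the steadiest member. The rank differed between groups for some members. In SD, SHAM and DMT rats, Dbp was at 0.72, 0.25 and 0.30 (percentiles 98.9, 68.7 and 91.9). Per1 was at 0.84, 0.30 and 0.30 (percentiles 99.3, 77.3 and 91.8). Nr1d1 was at 0.52, 0.54 and 0.48 (percentiles 97.0, 95.5 and 97.5).

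Rats of 1 group also differed in several members together. After the group means were removed, 8 of the 28 pairs of members were correlated over the 19 rats (permutation of rats within groups, 100000 draws, Benjamini-Hochberg over 28 pairs), 3 positively and 5 negatively. By Spearman's rho 3 pairs passed, all among the 8. The share of pairs that would pass among all genes tested was not determined, so these counts have no background beside them. The strongest was Nr1d1 with Cry1 (r=-0.81, permutation p=1e-04, adjusted p=0.0021, rho=-0.70, permutation p=0.00339, adjusted p=0.0316), with r=-0.76 without the 2 rats farthest from the median of Nr1d1. Within groups r was -0.86 in SD, -0.81 in SHAM and -0.81 in DMT rats, and without the 2 farthest rats of each group it was 0.61, -0.56 and 0.54, so its sign turned in SD and DMT rats, of which 4 each were left. Clock was also negatively correlated with Cry1 (r=-0.75, permutation p=0.00065, adjusted p=0.00483, rho=-0.75, permutation p=0.00101, adjusted p=0.0141, and r=-0.66 without the 2 farthest rats). Dbp and Arntl went in opposite directions (r=-0.56, permutation p=0.00167, adjusted p=0.00779, rho=-0.79, permutation p=0.00029, adjusted p=0.00812, and r=-0.47 without the 2 farthest rats).

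The other 5 pairs passed by Pearson's r alone. Per2 and Per3 varied together (r=0.79, permutation p=0.00015, adjusted p=0.0021, rho=0.59, permutation p=0.0171, adjusted p=0.08, and r=0.65 without the 2 farthest rats). Arntl was negatively correlated with Per2 (r=-0.76, permutation p=0.00069, adjusted p=0.00483, rho=-0.62, permutation p=0.011, adjusted p=0.0617) and with Per3 (r=-0.71, permutation p=0.00124, adjusted p=0.00694, rho=-0.63, permutation p=0.0087, adjusted p=0.0609), and r was -0.49 in both without the 2 farthest rats. Dbp was positively correlated with Per3 (r=0.69, permutation p=0.00428, adjusted p=0.0171, rho=0.54, permutation p=0.0317, adjusted p=0.0986) and with Nr1d1 (r=0.67, permutation p=0.0115, adjusted p=0.0404, rho=0.14, permutation p=0.607, adjusted p=0.697), and r was 0.42 in both without the 2 farthest rats. Within groups, r of Dbp with Nr1d1 was 0.96 in SD, 0.41 in SHAM and 0.57 in DMT rats. Without the 2 rats of each group farthest from its median of Dbp, it was -0.20, -0.80 and -0.90. Its sign thus turned in every group. Per1 was in none of the 8 pairs. Without SD rat 357, SHAM rat 311 and DMT rat 341, which were set aside together after their values had been seen, 0 of the 28 pairs passed over 16 rats, the lowest adjusted p being 0.126. Some coefficients were then much smaller (Arntl with Per2 r=-0.35, Arntl with Per3 r=-0.23, Per2 with Per3 r=0.47, Dbp with Per3 r=0.41). Others were near or above those over 19 rats (Nr1d1 with Cry1 r=-0.70, Dbp with Nr1d1 r=0.69, Dbp with Arntl r=-0.64, Clock with Cry1 r=-0.63). Within single groups, the lowest p of an exact permutation test was that of Dbp with Arntl in SD rats (r=-0.97, exact p=0.00139), which is the smallest p that 6 rats allow. Adjusted over the 84 pairs it is 0.117, so no single pair in SD or DMT rats could pass there. In all, 16 of the 84 had an unadjusted p-value under 0.05, and the share among pairs of all genes was not determined here either. Arntl with Cry1 had r=0.94 in SD rats, -0.81 in SHAM rats and -0.66 in DMT rats, and this difference between groups was not tested.

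**Figure D4:**
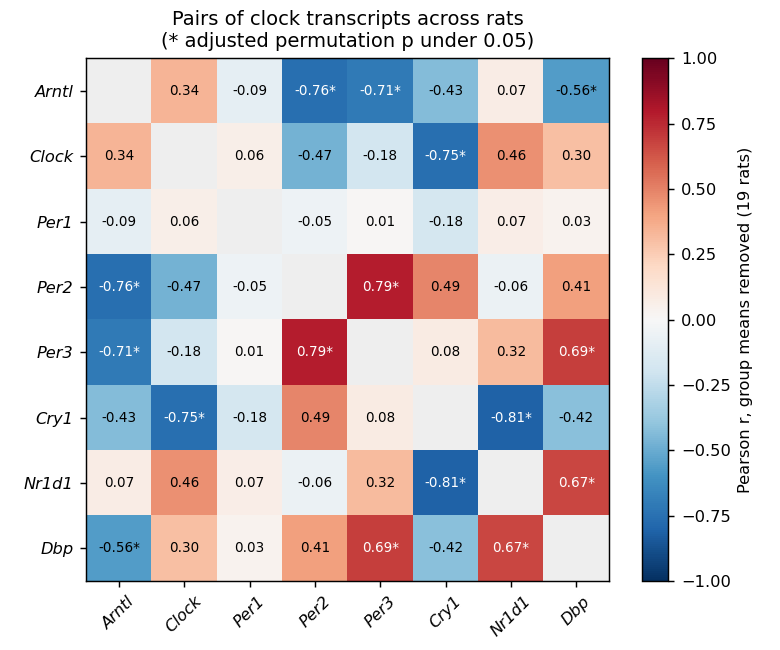
Pearson's r of log2(CPM + 0.5) between each pair of clock genes over 19 rats with group means removed, with an asterisk where the adjusted permutation p was under 0.05. Per2 with Per3 is among the strongest positive cells (r=0.79) and Nr1d1 with Cry1 the strongest negative one (r=-0.81).

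SD rat 357 held Dbp, Per2, Per3, Nr1d1 and Clock above, and Arntl and Cry1 below, all other SD rats. For Clock (55.7 CPM, next highest 53.4 CPM) and Per2 (75.7 CPM, next highest 66.8 CPM) the gap was smaller than for Dbp and Nr1d1. SHAM rat 311 and DMT rat 341 held the highest Arntl and the lowest Per2, Per3 and Cry1 of the SHAM and DMT rats respectively. Rat 357 had the smallest library of the SD rats (20896370 counts), and rats 311 and 341 the largest of the SHAM and DMT rats (23995113 and 26812590 counts). The part of depth in these differences was not tested.

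**Figure D5:**
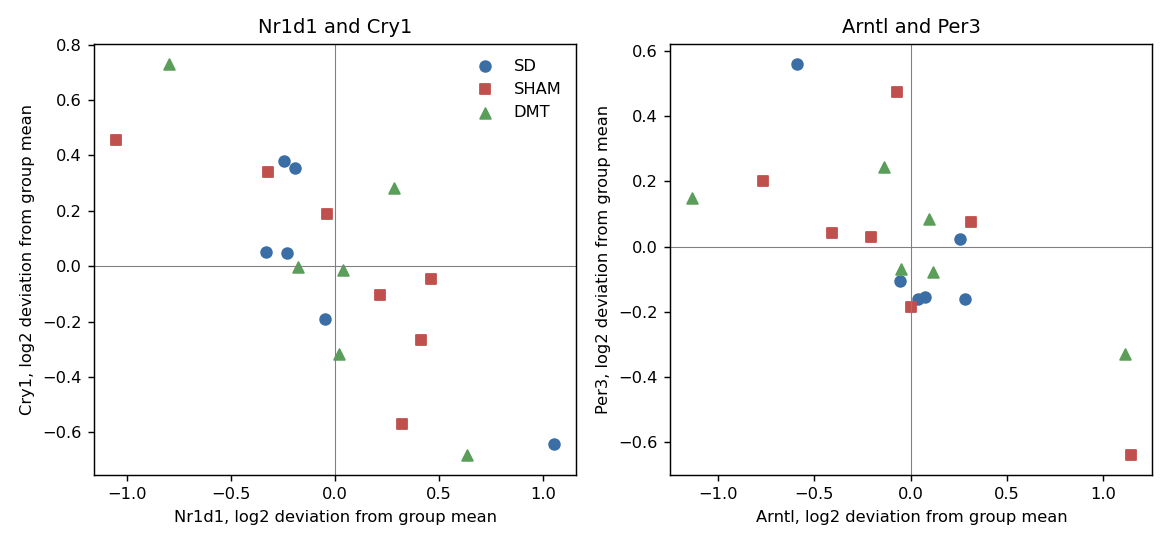
Cry1 against Nr1d1 (left) and Per3 against Arntl (right), each as the difference of a rat from its group's mean in log2(CPM + 0.5), with 1 point per rat and the group by colour and shape. Both clouds slope down (r=-0.81 and r=-0.71), and the points at the right end are SD rat 357 and DMT rat 341 on the left panel and SHAM rat 311 and DMT rat 341 on the right one.

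Among 13506 genes with a mean of at least 1 CPM, the patterns most like and most unlike those of Arntl and Dbp over the 19 rats, with group means removed, were all found with Dbp. They are named by identifier, since no symbol is paired with them. ENSRNOG00000046912 (rn5 chr15:12792822-12816505) followed Dbp with r=0.91 and 0.76 without SD rat 357, at 59.4 CPM on average in SD, 102 in SHAM and 102 in DMT rats. ENSRNOG00000042717 (rn5 chr2:217478839-217482049) followed it with r=0.90 and 0.84, at 0.529, 5.13 and 2.97 CPM. ENSRNOG00000011668 (rn5 chr17:14372306-14374095) had r=-0.87 and -0.62, at 14.6, 4.69 and 4.19 CPM. ENSRNOG00000012795 (rn5 chr18:3328555-3432388) had r=-0.87 and -0.62, at 18.3, 13.2 and 12.4 CPM. The first 2 are thus higher, and the last 2 lower, in both ZDSD groups than in SD rats on average, as Dbp is higher. These correlations were the extremes of many and carry no test. An r of at least 0.8 was reached by 3 genes with Dbp and 5 with Arntl. An r of -0.8 or lower was reached by 9 genes with Dbp and 2 with Arntl.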

How the data were processed

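RNA-seq of renal cortex was analysed in 21 rats. The authors deposited counts of fragments per gene, not normalized. Per the labels, the file headers and the study's methods, libraries were made with a stranded total RNA kit after rRNA removal, and the authors used Trim Galore and Cutadapt for trimming, STAR for mapping to rn5 and featureCounts (1.6.4, reverse strand) for counting on Ensembl exons. Fragments on several places or genes are left out, which lowers counts where genes overlap.

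From these counts, libraries of at least 1000000 counts (19) were kept, as the definition of the gene set requires. Genes were filtered with filterByExpr (minimum count 10, minimum total 15), scaled by TMM and fitted by edgeR (4.0.16, R 4.3.3) quasi-likelihood over the 3 groups without covariates, with Benjamini-Hochberg adjustment over 14664 genes. Genes with adjusted p under 0.05 and a fold-change of at least 1.3, the thresholds of the study's methods, were called. All 51 pairs of libraries of a group differed by more than counting error (chi-square over its degrees of freedom 9.65 to 140.5), so each rat is 1 replicate. Counts of 3 equal 0.109 to 0.207 CPM in these libraries. Correlations used log2(CPM + 0.5) with group means removed and 100000 permutations within groups, in Python 3.11.15 with scipy 1.17.1. The fit and the correlations were tested on simulated data. The simulated counts of the fit had the same spread for all genes (biological coefficient of variation 0.158). Their changes were larger than those of Nr1d1 and Dbp in DMT vs SHAM, so they do not show how the fit performs there.

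The named genes were all 8 members plus, by r with Arntl and Dbp, the 2 most and 2 least alike genes. Promoter windows were to be printed for members called in DMT vs SHAM. As there were none, those of members called in SHAM vs SD with a match were printed. The members and lists were chosen with earlier results of these data known. Symbols came with the definition of the gene set and were checked by chromosome (8 of 8 in RefSeq). Alternatives were DESeq2 (1.42.0), limma-voom (3.58.1), other scalings, filters and thresholds, all 21 libraries, only the groups compared, and leaving out each rat. The fits without SD rat 357, SHAM rat 311 and DMT rat 341 together were added after their values had been seen.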

Additional observations from a re-analysis of the deposited data

Results flagged for a closer look

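In 24 groups of rats (8 genes in 3 groups), 5 held a highest rat whose gap to the others was large. The gap was judged against the range of the group by Dixon's 95% critical value. Chance gives about 1 in 20 groups, or 1.2, if the groups are independent and their values normal. These groups share rats and are not independent, and the share over all genes was not determined. In SD rat 357, Dbp was at 115 CPM (the other 5 SD rats at 29.7 to 39.7 CPM), Nr1d1 at 63.1 CPM (23.8 to 29.1 CPM) and Per3 at 22.6 CPM (13.5 to 15.4 CPM). Arntl was at 19.7 CPM in SHAM rat 311 (the other 6 SHAM rats at 4.89 to 10.9 CPM) and at 18.3 CPM in DMT rat 341 (the other 5 DMT rats at 3.46 to 8.93 CPM).

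The 2 SHAM libraries under 1000000 counts, left out of the comparisons, held 223045 counts together. Scaled to library totals, they gave 152 CPM for Per2 (95% exact Poisson interval 106 to 213), 58.3 CPM for Per3 (31.0 to 99.7) and 215 CPM for Dbp (159 to 285), above the highest SD rat on the same scale (70.6, 21.1 and 107 CPM). Arntl was at 17.9 CPM (4.89 to 45.9), from 4 counts. Its interval and those of Per1 (54.8 to 138), Nr1d1 (31.0 to 99.7), Clock (15.5 to 70.7) and Cry1 (4.89 to 45.9) overlapped the SD rats. These intervals cover counting error only.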

How the results depend on the processing

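The calls of SHAM vs SD and DMT vs SD changed little. Over all 3 comparisons, there were 768 fold-changes of members under alternatives. Of these, 738 kept their direction and their side of the thresholds, 2 lost a call, 16 gained one and 12 turned their sign. Most calls gained were in DMT vs SHAM, 11 for Nr1d1 and 3 for Dbp, and Nr1d1 and Clock gained 1 each in DMT vs SD. The sign turned in 4 for Per1 and 2 for Arntl in DMT vs SHAM, and in 6 for Cry1 in SHAM vs SD. The 2 lost calls were Clock in SHAM vs SD with library totals alone (log2 fold-change -0.30) and with the test against the fold threshold (adjusted p=0.456).

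Members called in DMT vs SHAM numbered 0 in the reported fit, 1 with the DESeq2 Wald test, with library totals alone, with at least 10 counts in every library, with all 21 libraries and with the shallow SHAM libraries summed, and 2 when only the 2 groups compared were fitted. It was also 2 without SD rat 357, SHAM rat 311 and DMT rat 341 together, a fit added after the values had been seen. Leaving out 1 rat at a time gave 0 to 2. It was 2 (Dbp and Nr1d1) without SD rat 357 and 1 without DMT rat 341, SHAM rat 334 or SHAM rat 340. The cause was not tested.

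Leaving out 1 rat at a time, the DMT vs SHAM log2 fold-change ranged from -0.081 to 0.076 for Per1 and from -0.38 to 0.24 for Arntl (0.24 without SHAM rat 311), and that of Cry1 in SHAM vs SD from -0.083 to 0.11. It was -0.012 for Cry1 with limma-voom. None of these was called in any alternative. Of the 28 pairs, 8 were correlated, 3 by ranks, 0 without the 3 rats named above, and 7 to 9 leaving out 1 rat. No paired analysis was possible because the labels give no numbers that pair rats between groups. Groups of 6 and 7 rats and the spread of Nr1d1 and Dbp limit what DMT vs SHAM can show.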
